A study of Homo sapiens with 6 samples.

Results

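Transcripts of 10 circadian clock genes were examined in HepG2, an established human hepatocarcinoma cell line, after exposure to glycine. The genes were listed by name, by a rule that uses no measured value but was written with earlier results of these data known, as the period genes (PER1, PER2, PER3), the cryptochromes (CRY1, CRY2), the REV-ERB receptors (NR1D1, NR1D2) and the output regulators DBP, TEF and BHLHE40. They are 10 of 57500 genes counted, and all 10 were among the 15492 genes with enough counts to be tested. Wild-type HepG2 cells received vehicle or glycine (10 mM) for 24 h, with 3 independent replicates per group, and total RNA was sequenced. The culture medium itself contains glycine, so vehicle cells were not free of it, and medium was replaced with fresh medium when the treatment began. Every library came from the same single time after that change, so a shift in the phase of a cycle, a change of its amplitude and a change of its mean level cannot be told apart here. As RNA was taken from whole cultures, fewer cells expressing a transcript and less transcript per cell cannot be told apart either.

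The mammalian clock is a transcriptional feedback loop. The activators CLOCK and BMAL1, or NPAS2 in place of CLOCK, bind E-box elements and switch on the period and cryptochrome genes, whose proteins return to the nucleus and inhibit their own activators. In an interlocking loop, the REV-ERB receptors repress BMAL1 while the ROR receptors activate it from the same response elements. DBP and TEF, with their relative HLF, are proline- and acidic amino acid-rich basic leucine zipper (PAR bZIP) factors that carry the rhythm to D-box elements, many of them in liver genes for detoxification and metabolism. BHLHE40, also called DEC1, competes at E-boxes and dampens the loop. In cultured cells, a change of serum-containing medium is known to reset the phase of this oscillator.

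Promoter windows are shown for TEF, the member that passed the test, for DBP, its closest relative among the members, and for PER2, PER3 and NR1D2, the members whose windows held a D-box. Each runs from 250 bases before to 50 bases after a RefSeq transcription start on GRCh38.p14, 5′ to 3′ on the strand of the gene, and capitals mark the motifs searched on both strands. These were the E-box CACGTG, the variant E-box CACGTT, the D-boxes TTATGTAA and TTACGTAA, the REV-ERB/ROR cores TAGGTCA and TGGGTCA and the cyclic AMP element TGACGTCA. The TEF windows lie at chr22:41367205-41367504 and chr22:41381692-41381991 on the plus strand, the second one mostly in intron of the gene model in the files. The DBP window lies at chr19:48637330-48637629 and the PER2 window at chr2:238288561-238288860, both on the minus strand. The PER3 window lies at chr1:7784041-7784340 and the NR1D2 window at chr3:23945871-23946170, both on the plus strand.
TEF, upstream start: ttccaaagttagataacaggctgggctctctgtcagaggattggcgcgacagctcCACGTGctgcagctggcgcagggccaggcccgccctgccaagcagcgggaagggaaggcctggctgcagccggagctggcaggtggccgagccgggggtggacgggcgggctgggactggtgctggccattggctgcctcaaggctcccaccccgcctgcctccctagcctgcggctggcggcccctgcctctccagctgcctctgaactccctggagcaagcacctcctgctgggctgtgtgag
TEF, internal start: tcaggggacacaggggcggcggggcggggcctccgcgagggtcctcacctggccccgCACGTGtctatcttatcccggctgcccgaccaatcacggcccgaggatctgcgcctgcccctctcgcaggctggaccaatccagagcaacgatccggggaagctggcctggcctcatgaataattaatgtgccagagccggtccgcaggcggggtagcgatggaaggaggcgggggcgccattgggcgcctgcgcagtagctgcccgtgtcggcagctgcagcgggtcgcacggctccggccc
DBP: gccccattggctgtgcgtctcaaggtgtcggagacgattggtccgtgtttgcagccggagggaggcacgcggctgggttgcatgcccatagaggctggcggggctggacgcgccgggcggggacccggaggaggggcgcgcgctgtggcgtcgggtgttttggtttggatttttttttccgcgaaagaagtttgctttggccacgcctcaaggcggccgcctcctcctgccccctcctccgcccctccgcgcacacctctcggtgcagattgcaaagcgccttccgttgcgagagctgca
PER2: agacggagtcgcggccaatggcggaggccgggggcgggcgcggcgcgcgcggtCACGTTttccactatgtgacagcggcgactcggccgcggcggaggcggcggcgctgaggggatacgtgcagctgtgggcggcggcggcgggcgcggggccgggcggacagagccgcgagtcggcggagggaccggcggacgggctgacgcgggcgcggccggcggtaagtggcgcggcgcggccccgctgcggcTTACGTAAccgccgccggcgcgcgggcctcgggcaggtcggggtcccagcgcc
PER3: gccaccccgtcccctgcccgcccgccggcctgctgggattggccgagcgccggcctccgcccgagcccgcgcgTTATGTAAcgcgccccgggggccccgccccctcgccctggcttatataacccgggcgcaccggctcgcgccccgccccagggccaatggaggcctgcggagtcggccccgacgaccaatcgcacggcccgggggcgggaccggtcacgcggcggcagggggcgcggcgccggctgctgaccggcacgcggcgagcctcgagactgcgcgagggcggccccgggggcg
NR1D2, downstream start: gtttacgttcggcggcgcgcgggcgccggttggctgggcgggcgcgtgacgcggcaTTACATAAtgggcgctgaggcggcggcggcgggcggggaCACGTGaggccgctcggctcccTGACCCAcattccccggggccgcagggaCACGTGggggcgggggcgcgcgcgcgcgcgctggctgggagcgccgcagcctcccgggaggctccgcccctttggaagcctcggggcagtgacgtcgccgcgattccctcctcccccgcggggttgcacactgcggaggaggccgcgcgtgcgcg

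The 10 genes had 14 such windows. Both TEF windows held an E-box, 195 bases before the upstream start and 193 bases before the internal one, and E-boxes also stood in windows of PER1, NR1D2 and BHLHE40. Thus 5 of the 14 windows, from 4 members, held CACGTG, while 7.26% of the 35116 windows of all genes did. PER2, CRY1, CRY2 and NR1D1 held the variant E-box, found in 5.34% of all windows. TTATGTAA stood in windows of PER3 and NR1D2, against 0.886% of all windows, and TTACGTAA in the window of PER2, 3 bases before its start, against 0.125%. The REV-ERB/ROR cores stood in a window of CRY2 (TAGGTCA, 1.85% of all windows) and of NR1D2 (TGGGTCA, 3.92%), and the cyclic AMP element in that of 0 members (1.85% of all windows). None of these letters occurred in the DBP window. These matches are a description of sequence alone.

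The libraries held 31795489 to 58815986 counts, the deepest being glycine replicate 2, and 3 counts in the shallowest library corresponded to 0.0943 CPM (CPM, the count relative to the total of its library). Libraries correlated more closely within groups (Spearman 0.9957 to 0.9972, across genes) than between them (0.9917 to 0.9941). All 9 hepatocyte markers were detected, and their summed level was 29594 to 33653 CPM in vehicle and 25411 to 29108 CPM in glycine libraries. APOA1 and TTR were called lower after glycine and 0 of 9 higher. ALB averaged 7688 CPM in vehicle and 5477 CPM in glycine but was not called (edgeR adjusted p = 0.0764). Its level in vehicle replicate 2 was 5366 CPM. APOB averaged 10752 CPM in both groups. The leukocyte list (5 genes, CD3E at 0) summed to 2124 to 2327 CPM in vehicle and 1691 to 1850 CPM in glycine, nearly all of it from LYZ (lower after glycine), while PTPRC and ITGAM had at most 7 counts in any library. The fibroblast list (5 genes) summed to 27.1 to 31.1 and 21.5 to 22.1 CPM, and the endothelial list (4 genes) to 5.45 to 5.79 and 4.60 to 5.26 CPM, respectively. In the fibroblast list PDGFRB was lower (means 26.9 and 17.0 CPM, edgeR adjusted p = 0.000137) and COL1A1 higher (2.15 and 4.38 CPM, edgeR adjusted p = 0.000585), and in the endothelial list VWF was lower (0.584 and 0.258 CPM, edgeR adjusted p = 0.0239). The part of these shifts in the values below was not tested.

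Of the 10 clock genes, only TEF passed the test. By the quasi-likelihood test of edgeR at an adjusted p of 0.05, 0 members were higher after glycine and 1 was lower, while of all genes tested 6.71% were higher and 6.54% lower, 13.3% together. Glycine and vehicle libraries did not overlap in 4 members (TEF, DBP, PER1 and CRY1), against 31.6% of all genes. The log2 fold change was above 0 in 5 members and below 0 in 5, with a median of 0.01, and the median of all genes was 0.00. At an unadjusted p under 0.05, 4225 of the 15492 genes differed, and of the members TEF, DBP and CRY1. No 95% interval reached a 1.5-fold rise: the highest upper bounds were 1.38-fold, for CRY1 and BHLHE40.

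**Figure D1:**
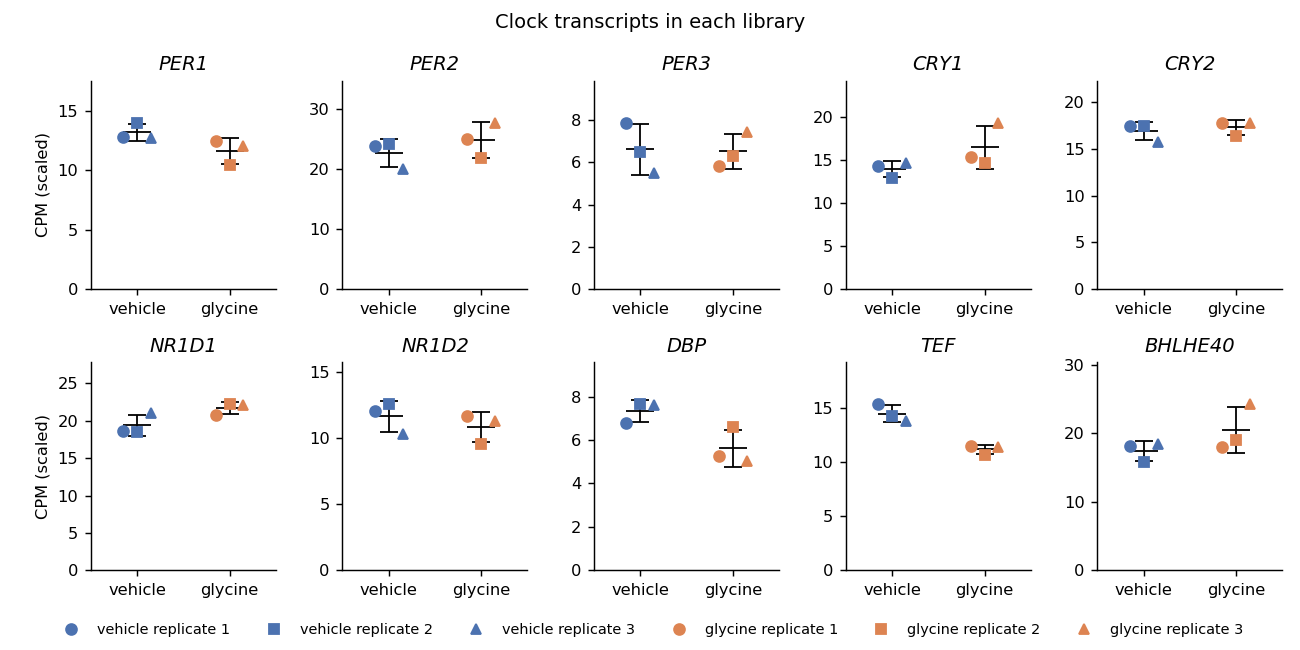
Scaled CPM of each clock gene in each library, with vehicle in blue and glycine in orange, symbols for the replicate number and black bars for the mean ± SD of 3 libraries; each panel starts at 0. The 3 glycine libraries lie below all vehicle libraries for TEF, DBP and PER1 and above them for CRY1, and the groups overlap in the other 6 panels.

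Among the output regulators, TEF had 15.4, 14.2 and 13.8 CPM in vehicle replicates 1 to 3 and 11.5, 10.7 and 11.4 CPM in glycine replicates 1 to 3. All glycine libraries were lower than all vehicle libraries, and the spread within groups was small. The means were 14.5 ± 0.802 CPM in vehicle and 11.2 ± 0.425 CPM in glycine (SD, n = 3), which gave a log2 fold change of -0.37 ± 0.0821 (SE) and 0.772-fold of vehicle (95% interval 0.683 to 0.873, edgeR adjusted p = 0.00927). TEF ranked 876 of 15492 genes by p, so many genes of these libraries differed with a smaller p. The gene (ENSG00000167074, chr22:41367333-41399326, plus strand) shares no exon bases with another gene in the files. When the test asked for a change beyond 1.2-fold, TEF did not pass (edgeR adjusted p = 0.39).

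DBP, the albumin promoter D-box binding protein, had 6.77, 7.65 and 7.59 CPM in vehicle and 5.26, 6.60 and 5.02 CPM in glycine libraries. Its groups did not overlap either, although glycine replicate 2 lay close to the lowest vehicle library. Its mean was 7.34 ± 0.497 CPM in vehicle and 5.63 ± 0.848 CPM in glycine (SD, n = 3), and its log2 fold change of -0.37 ± 0.121 equalled that of TEF to 2 decimals but missed the threshold (edgeR adjusted p = 0.0606). The interval ran from 0.646-fold to 0.927-fold. Without glycine replicate 2 the log2 fold change was -0.51 and passed the threshold (edgeR adjusted p = 0.0204). In the other 5 fits that left out a library DBP did not pass, with log2 fold changes of -0.44 to -0.30 (edgeR adjusted p = 0.0645 to 0.184). DBP (chr19:48630030-48637438, minus strand) shares 661 exon bases, 10.1% of its exon length, with SPHK2 on the opposite strand, and the strand setting of the counting is not given in the sources used here. SPHK2 itself had a log2 fold change of 0.02 (edgeR adjusted p = 0.878).

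The ratio of DBP to TEF counts was 0.509 ± 0.0600 in vehicle and 0.505 ± 0.0967 in glycine libraries (SD, n = 3, exact permutation test, two-sided, p = 1). HLF, the remaining PAR bZIP gene and by far the most abundant, had 296, 278 and 299 CPM in vehicle and 275, 265 and 294 CPM in glycine, with a log2 fold change of -0.06 ± 0.0660 (edgeR adjusted p = 0.574). Per exon length, HLF stood at 154 ± 9.72 TPM in vehicle, TEF at 10.7 ± 0.894 TPM and DBP at 3.91 ± 0.157 TPM (SD, n = 3). TPM is the count divided by exon length, then scaled to the same total in every library. For TEF over HLF, the count ratio was 0.0519, 0.0512 and 0.0462 in vehicle and 0.0417, 0.0403 and 0.0388 in glycine. These groups did not overlap (exact permutation test, two-sided, p = 0.1, the smallest that 3 against 3 libraries allow; 0.3 adjusted over 9 ratios). DBP over HLF overlapped between the groups (exact permutation p = 0.2, two-sided; 0.45 adjusted). The 9 ratios and HLF were chosen after values had been seen.

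BHLHE40 had 18.1, 15.8 and 18.4 CPM in vehicle and 18.0, 19.0 and 24.3 CPM in glycine libraries. The groups overlapped, and glycine replicate 3 stood above the rest. With means of 17.5 ± 1.44 and 20.4 ± 3.36 CPM (SD, n = 3), the log2 fold change was 0.23 ± 0.108 and the interval 0.997-fold to 1.38-fold (edgeR adjusted p = 0.192). Without glycine replicate 3 the log2 fold change was 0.078 (edgeR adjusted p = 0.676).

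None of the period genes passed the test. PER1, known to respond rapidly to hormones and cyclic AMP, had 12.8, 14.0 and 12.7 CPM in vehicle and 12.4, 10.4 and 12.0 CPM in glycine. Every glycine library was below every vehicle library, by a narrow margin, and the log2 fold change was -0.19 ± 0.0916 (0.766-fold to 1.01-fold, edgeR adjusted p = 0.212). PER2, whose loss shortens or abolishes rhythms in mice, had 23.8, 24.2 and 20.0 CPM in vehicle and 24.9, 21.8 and 27.7 CPM in glycine. It overlapped between the groups, with a log2 fold change of 0.13 ± 0.0988 (0.942-fold to 1.27-fold, edgeR adjusted p = 0.450). PER3, the least essential of the family for the core loop, had 7.88, 6.51 and 5.48 CPM in vehicle and 5.83, 6.31 and 7.44 CPM in glycine. Its vehicle libraries spread the widest of all members (coefficient of variation 18.2%), and its log2 fold change was -0.02 ± 0.137 (0.805-fold to 1.21-fold, edgeR adjusted p = 0.954). PER3 shares 16.7% of its exon length with UTS2 (0 counts in all libraries together) and ENSG00000236266 (8 counts) on the opposite strand. How these shared bases were counted is unknown, as the strand setting is not given.

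PER2 and PER1 leaned in opposite directions. The ratio of PER2 to PER1 counts was 1.86, 1.73 and 1.57 in vehicle and 2.01, 2.09 and 2.31 in glycine libraries. It was higher in every glycine library, with a difference of 0.31 on the log2 scale (exact permutation test, two-sided, p = 0.1, the smallest possible; 0.3 adjusted over 9 ratios). Ratios with PER3 overlapped between groups (exact permutation p = 0.4 for PER3 over PER1 and for PER2 over PER3, two-sided).

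The cryptochromes, the strongest repressors of the CLOCK and BMAL1 complex, did not pass the test. CRY1 had 14.4, 12.9 and 14.7 CPM in vehicle and 15.4, 14.7 and 19.4 CPM in glycine, where replicate 2 only just exceeded the highest vehicle library. The log2 fold change was 0.24 ± 0.106, with an interval of 1.01-fold to 1.38-fold (unadjusted p = 0.0412, edgeR adjusted p = 0.162). Without glycine replicate 3 it was 0.098 (edgeR adjusted p = 0.593). CRY2 had 17.5, 17.4 and 15.8 CPM in vehicle and 17.8, 16.4 and 17.8 CPM in glycine. These values overlapped, with a log2 fold change of 0.03 ± 0.0784 and an interval of 0.911-fold to 1.15-fold (edgeR adjusted p = 0.824). The ratio of CRY1 to CRY2 counts was 0.831 ± 0.0967 in vehicle and 0.951 ± 0.122 in glycine (SD, n = 3, exact permutation test, two-sided, p = 0.3).

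Of the heme-binding REV-ERB receptors, NR1D1 (REV-ERB alpha) had 18.7, 18.5 and 21.0 CPM in vehicle and 20.8, 22.2 and 22.1 CPM in glycine. A single vehicle library, replicate 3, lay within the glycine range. The log2 fold change was 0.16 ± 0.0765, with an interval of 0.999-fold to 1.26-fold (edgeR adjusted p = 0.189). NR1D1 (chr17:40092787-40100725, minus strand) shares 263 exon bases, 9.49% of its exon length, with THRA, the thyroid hormone receptor alpha gene on the opposite strand. THRA averaged 47.0 ± 3.57 CPM in vehicle and 38.0 ± 1.07 CPM in glycine (SD, n = 3), lower by a log2 fold change of -0.31 ± 0.0709 (edgeR adjusted p = 0.0126). The ratio of NR1D1 to THRA counts was 0.381, 0.378 and 0.491 in vehicle and 0.541, 0.604 and 0.568 in glycine, without overlap (exact permutation test, two-sided, p = 0.1, the smallest possible; 0.3 adjusted). Without the strand setting, how the shared bases were counted is unknown, and its part in these values was not tested.

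NR1D2 (REV-ERB beta) had 12.0, 12.6 and 10.3 CPM in vehicle and 11.7, 9.52 and 11.3 CPM in glycine. The groups overlapped, with a log2 fold change of -0.11 ± 0.105 and an interval of 0.791-fold to 1.08-fold (edgeR adjusted p = 0.544). NR1D1 over NR1D2 was 1.69 ± 0.309 in vehicle and 2.02 ± 0.283 in glycine (count ratio, SD, n = 3, exact permutation test, two-sided, p = 0.3).

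**Figure D2:**
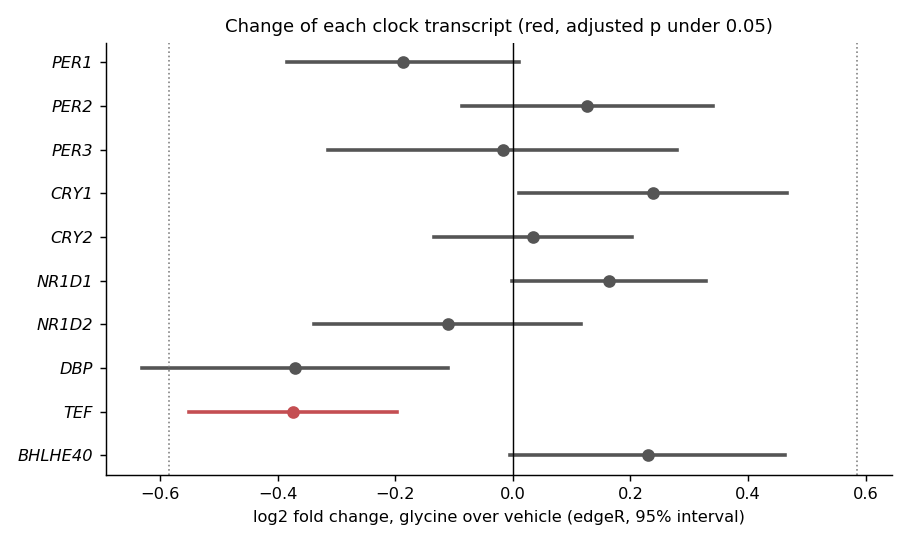
Log2 fold change of each clock gene, glycine over vehicle, with its 95% interval from edgeR; the solid line marks no change and the dotted lines a 1.5-fold fall and rise. TEF, in red, is the only gene with an adjusted p under 0.05, and only the interval of DBP extends past a dotted line.

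The members that stood high or low in a library were not the same in each. Glycine replicate 3 held the highest value of PER2, CRY1 and BHLHE40 and the lowest of DBP. Glycine replicate 2 held the lowest value of PER1, NR1D2 and TEF and the highest of NR1D1. Among vehicle libraries, replicate 2 held the highest value of PER1, NR1D2 and DBP and the lowest of CRY1, NR1D1 and BHLHE40, and replicate 3 the lowest of PER2, PER3 and CRY2. Within vehicle, the coefficient of variation ran from 5.45% (PER1) to 18.2% (PER3), and within glycine from 3.51% (NR1D1) to 16.5% (BHLHE40).

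Per exon length, in TPM, NR1D1 was the most abundant member in vehicle cells (24.4 ± 1.82), followed by BHLHE40 (15.9 ± 1.67) and PER2 (11.5 ± 1.26) (SD, n = 3). No library of one of these genes reached the range of the next. PER2, TEF (10.7 ± 0.894), CRY1 (9.64 ± 0.875) and CRY2 (9.50 ± 0.673) overlapped with their neighbours in the order. CRY2 lay apart from NR1D2 (6.97 ± 0.734), which overlapped with PER1 (6.55 ± 0.247). DBP (3.91 ± 0.157) and PER3 (2.86 ± 0.593) were the lowest and lay apart from each other and from PER1. Each level per length depends on the merged exon length in the files, which takes in every annotated transcript. It was 6544 bases for DBP, 6877 for PER2 and 2772 for NR1D1. By CPM, PER2 (mean 22.7) stood above NR1D1 (mean 19.4) in vehicle.

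In glycine cells the order kept NR1D1 (27.6 ± 0.994 TPM), BHLHE40 (18.8 ± 3.50) and PER2 (12.7 ± 1.96) on top (SD, n = 3). TEF moved from the 4th to the 6th place, at 8.36 ± 0.626 TPM, below CRY1 (11.5 ± 2.07) and CRY2 (9.85 ± 0.825). Its libraries no longer overlapped with those of CRY2. At the lower end, DBP (3.02 ± 0.332) and PER3 (2.84 ± 0.412) now overlapped.

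**Figure D3:**
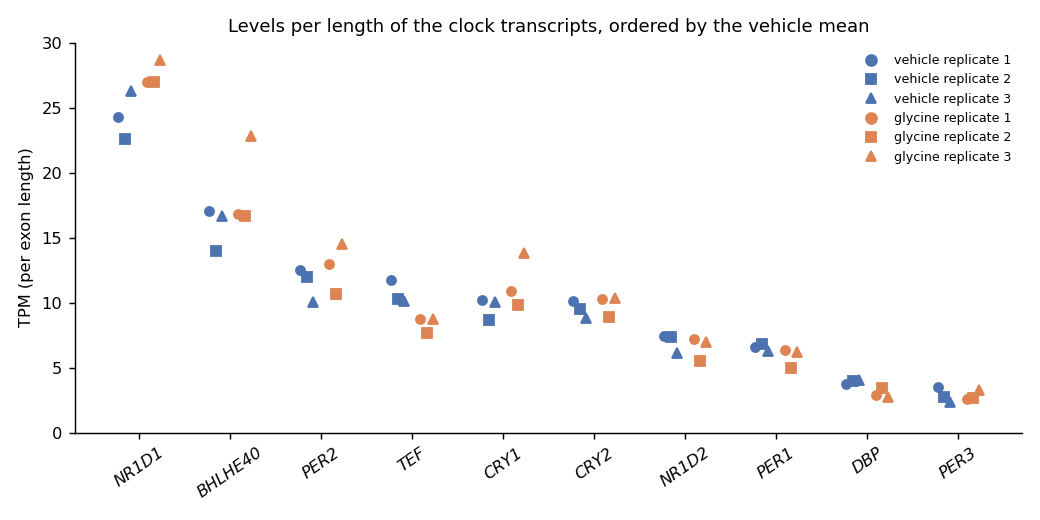
Level per exon length (TPM) of each clock gene in each library, ordered by the vehicle mean, with vehicle in blue, glycine in orange and symbols for the replicate number. NR1D1 is the highest member in every library, and TEF moves below CRY2 in the glycine libraries.

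The other genes of the clock pathway were read from a list of 55 genes in 6 roles, of which 51 could be tested. After glycine 4 were higher and 5 lower, and 42 did not pass the test, beside 13.3% called among all genes, with a median log2 fold change of -0.05. The 4 genes too low to test were RORB (4 counts in all libraries together), CIART (1), CYP2A6 (3) and AVP (5). None of the 4 activators passed. BMAL1, the partner shared by the activating complexes, had 5.79, 4.90 and 5.20 CPM in vehicle and 4.98, 4.65 and 4.29 CPM in glycine, with overlap (log2 fold change -0.20 ± 0.115, edgeR adjusted p = 0.303). NPAS2, which can stand in for CLOCK, had 53.4, 49.6 and 55.9 CPM in vehicle and 48.2, 41.4 and 49.3 CPM in glycine, without overlap (-0.20 ± 0.0788, edgeR adjusted p = 0.125). CLOCK had a log2 fold change of -0.08 ± 0.111 (edgeR adjusted p = 0.677) and BMAL2 of 0.07 ± 0.0766 (edgeR adjusted p = 0.619). The activators were named here for their role, after their values had been seen.

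Of the ROR receptors, RORA, which activates BMAL1 against the REV-ERB receptors, was lower after glycine. It had 4.74, 4.19 and 3.95 CPM in vehicle and 2.88, 2.41 and 3.06 CPM in glycine, all below vehicle. The log2 fold change was -0.64 ± 0.139 (edgeR adjusted p = 0.00904), and without glycine replicate 2 the call was lost (edgeR adjusted p = 0.0503). In this role 1 of 5 genes tested was lower and 0 higher, beside 6.54% and 6.71% of all genes. NFIL3, a repressor at D-boxes that opposes DBP and TEF, had a log2 fold change of -0.05 ± 0.0717 (edgeR adjusted p = 0.682; named after its value was seen).

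The 9 kinases and phosphatases that act on period proteins, casein kinases among them, ranged in log2 fold change from -0.16 to 0.12. Of these 0 passed the test, beside 13.3% called among all genes. The 6 genes listed as ubiquitin ligases and proteases, a class that sets the lifetime of cryptochrome and period proteins, ranged from -0.17 to 0.04. Here too 0 passed, beside the same 13.3%. FBXL21P, on that list, is annotated as a transcribed pseudogene in human. Of 9 chromatin and NAD partners 1 was higher and 0 lower, beside 6.71% and 6.54% of all genes. This was TIMELESS, which rose from 72.5 ± 3.40 to 89.7 ± 4.14 CPM (SD, n = 3, log2 fold change 0.31 ± 0.0646, edgeR adjusted p = 0.00751). TIMELESS is known in mammals mainly for its work at replication forks with TIPIN, which missed the threshold (0.21 ± 0.0798, edgeR adjusted p = 0.112; named after its value was seen). Without glycine replicate 1 the call of TIMELESS was lost (edgeR adjusted p = 0.0581).

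Of 18 tested genes listed as liver outputs and clock-controlled genes, 3 were higher and 4 lower, beside 6.71% and 6.54% of all genes. The roles were not tested against each other. The cell cycle inhibitor CDKN1A rose by 0.34 ± 0.0700 on the log2 scale (edgeR adjusted p = 0.00641) and KLF10, a TGF-beta-inducible repressor, by 0.31 ± 0.0799 (edgeR adjusted p = 0.0201). PPARA, the fatty acid receptor and a known target of PAR bZIP factors, fell from 55.7 ± 8.05 to 41.8 ± 1.83 CPM (SD, n = 3; log2 fold change -0.41 ± 0.0929, edgeR adjusted p = 0.0104). PPARGC1A, a coactivator of gluconeogenic genes, fell from 11.2 ± 1.08 to 8.31 ± 0.625 CPM (SD, n = 3; -0.43 ± 0.0994, edgeR adjusted p = 0.0125). The other lower calls, both named after their values were seen, were G6PC1 (-0.84 ± 0.226, edgeR adjusted p = 0.0274) and LPIN1 (-0.33 ± 0.0941, edgeR adjusted p = 0.0352). Calls were lost without a single library for KLF10 (edgeR adjusted p = 0.0638 without vehicle replicate 3, 0.0696 without glycine replicate 1 and 0.0759 without glycine replicate 3). The same held for PPARGC1A (edgeR adjusted p = 0.0504 without vehicle replicate 1 and 0.0506 without glycine replicate 2). LPIN1 was lost without vehicle replicate 1, glycine replicate 1 or glycine replicate 2 (edgeR adjusted p = 0.128, 0.0682 and 0.136). G6PC1 was lost without vehicle replicate 1, vehicle replicate 3, glycine replicate 1 or glycine replicate 2 (edgeR adjusted p = 0.0712, 0.0689, 0.0762 and 0.132). Most genes of this role also answer to signals other than the clock.

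**Figure D4:**
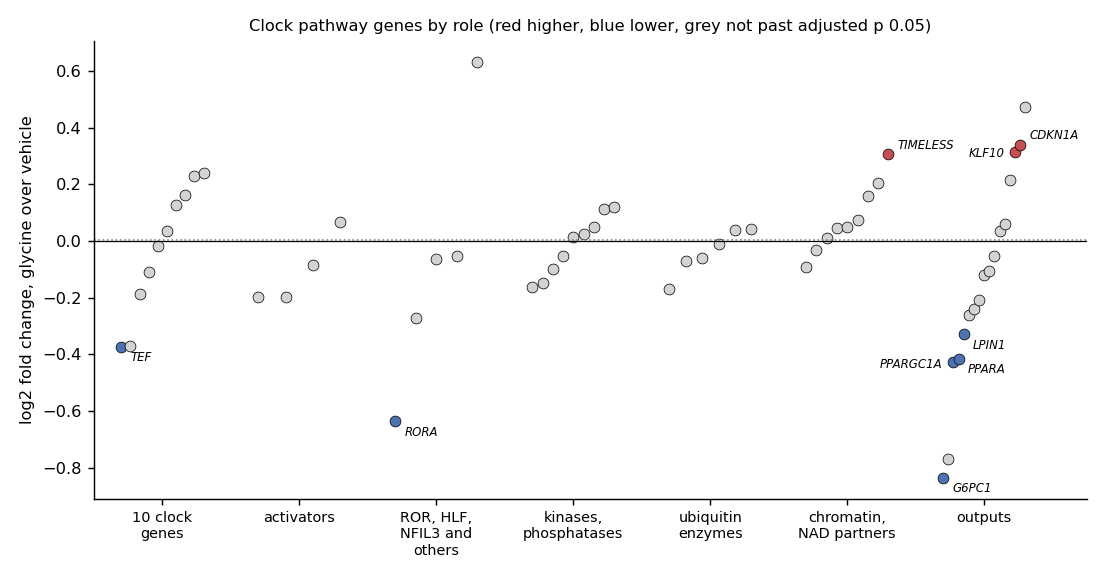
Log2 fold change, glycine over vehicle, of the 10 clock genes and of 50 genes of the wider clock list by role; red points were higher and blue points lower at an edgeR adjusted p under 0.05, grey points did not pass, and the dotted line is the median of all genes. The calls shown are TEF among the 10 clock genes, RORA, TIMELESS and 6 output genes.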

How the data were processed

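RNA was sequenced from 6 HepG2 libraries. The deposited values were whole-number read counts per gene, not normalized, in 1 file per library, made by the authors with (per the submitters' processing notes, which give no order) Trimmomatic 0.36, STAR 2.5.2b and featureCounts from Subread 1.5.2 on GRCh38. Of 57500 genes, 56898 were in GENCODE release 29, 54784 of them with the same start and end. The read layout, strand setting and annotation release are not given in the sources used here, and counting without strand would give shared bases of opposite-strand genes to either gene or to neither.

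Libraries were grouped by the treatment in their labels. Counts were tested in R 4.3.3 with the two-sided quasi-likelihood test of edgeR 4.0.16 on all genes, after the edgeR expression filter (minimum count 10, minimum total 15) and trimmed-mean scaling. Adjusted p-values are Benjamini-Hochberg over 15492 genes, with a threshold of 0.05. The fit left 4 residual degrees of freedom per gene, to which edgeR added prior degrees estimated across genes for tests and intervals. CPM were scaled by the same factors. TPM used the exon length in the files. Alternatives with DESeq2 1.42.0, limma 3.58.1, other scalings, filters, thinning and left-out libraries are given in the closing section. The fit was also run on simulated counts with the same fixed dispersion for all genes, unlike real counts, and no result given here rests on that run. Count ratios were compared by exact permutation, whose smallest p is 0.1. Intervals are for the difference between the groups, judged by the spread between these libraries, and do not describe that spread itself. The 3-count floor covers counting error only.

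The members, the wider list and the tests were chosen with earlier results of these data known. All 10 members were named. From the wider list, up to 5 genes per role with the smallest p past the threshold and genes too low to test were named. Genes sharing exon bases with a member were named where they had enough counts to be tested, and for PER3. Others are marked as chosen after their values were seen. Promoter windows came from RefSeq on GRCh38.p14. The values of 1 gene of the wider list are counted but not reported or plotted here.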

Additional observations from a re-analysis of the deposited data

How the results depend on the processing

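Under 16 alternatives, 0 clock genes were called higher in each. TEF was called lower in 15, with log2 fold changes of -0.41 to -0.34, and was lost only in the edgeR test against a 1.2-fold change, which left 0 clock genes lower. Lower clock genes were 2 with no filter on low genes and with the replicate block, and 1 to 2 with libraries left out, 2 without glycine replicate 2, DBP being the gene added each time (edgeR adjusted p = 0.0257, 0.0399 and 0.0204). With libraries left out, the log2 fold change of PER3 ran from -0.14 to 0.12 (above 0 at 0.12 without vehicle replicate 1, 0.039 without glycine replicate 1 and 0.012 without glycine replicate 2) and that of CRY2 from -0.013 (without vehicle replicate 3) to 0.076; neither was called in any setting. The other uncalled members kept their direction but moved: PER1 from -0.25 to -0.11 (smallest without glycine replicate 2), PER2 from 0.028 (without glycine replicate 3; 0.043 without vehicle replicate 3) to 0.22 (without glycine replicate 2), CRY1 from 0.098 (without glycine replicate 3) to 0.32, NR1D1 from 0.13 to 0.22, NR1D2 from -0.19 (without vehicle replicate 3) to -0.019 (without glycine replicate 2; -0.052 without vehicle replicate 2, -0.18 without glycine replicate 1), and BHLHE40 from 0.078 (without glycine replicate 3) to 0.30. On the wider list, the 1.2-fold test left 1 higher and 0 lower, and leaving out libraries gave 2 to 4 higher and 1 to 6 lower, lowest without glycine replicate 1 (2 higher, 3 lower), vehicle replicate 1 (2 lower) and glycine replicate 2 (1 lower). Of the genes named from it, PPARA and CDKN1A kept their call in 15 alternatives, RORA and TIMELESS in 14, PPARGC1A in 13, KLF10 in 12, and G6PC1 and LPIN1 in 11. Across all genes, 1040 were higher and 1013 lower, 235 and 246 in the 1.2-fold test, and 587 to 926 and 655 to 1010 with a library left out, where fewer libraries entered the fit. Other causes were not tested. Replicate numbers did not pair the libraries (correlations of same-numbered deviations -0.0577, -0.0268 and -0.00258), and the replicate block gave 866 higher and 918 lower. Under other numbers, glycine replicates 3, 1 and 2 correlated positively with vehicle replicates 1, 2 and 3, in that order (0.214, 0.214 and 0.18). The remaining combinations gave -0.198 to -0.154. Whether libraries were matched under other numbers was not tested. Scalings moved the median log2 fold change by at most 0.01404. With 3 libraries per group and 1543 to 5637 counts per member in total, small changes could go undetected. The intervals do not set that limit, as those of CRY1 and DBP excluded no change in the main fit and neither gene was called there.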
